A study of Mus musculus with 10 samples.

Results

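The genes described here are 9 members of the complement system, C2, C3, C4b, Cfb, Cfp, C1ra, Serping1, C3ar1 and C5ar1, taken by symbol from a table of 54532 mouse genes. Whole-lung mRNA was sequenced at postnatal day 30 (P30) from 5 wild-type mice with increased pulmonary flow (IPF) and 5 sham-operated mice, of the C57BL/6J strain according to the methods. At P7 the IPF pups had a fine needle passed from the abdominal aorta into the inferior vena cava, an aortocaval fistula that returns more blood to the right heart and so to the lungs. The sham pups went through the same laparotomy without the puncture, and both groups were anesthetized with isoflurane and, according to the methods, received buprenorphine after surgery. The authors deposited FPKM values (fragments per kilobase of gene and per unit of library size), and IPF was compared with sham on log2(FPKM + 0.1).

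Complement is a cascade of plasma and tissue proteins that marks targets and calls in leukocytes. The classical route starts with the C1 complex, whose proteases cut C4 and C2, the alternative route uses factor B and properdin, and both build enzymes that cleave C3 and then C5. The small fragments C3a and C5a act on receptors of myeloid cells, and the large fragments lead to a pore in the target membrane. The liver makes most of the circulating proteins, while macrophages, epithelium, endothelium and fibroblasts of the lung also express components.

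Of the 9 genes, 1 passed the test and was higher in the IPF group, C5ar1, and 0 were lower (limma, Benjamini-Hochberg adjusted p under 0.05). Among all 20448 genes tested, 3.71% were called higher and 2.14% lower, 5.85% in all. C5ar1, the receptor for C5a on neutrophils, monocytes and macrophages, stood at 5.19 ± 0.528 FPKM in IPF lungs and 3.47 ± 0.618 FPKM in sham lungs (SD, n = 5 each), a fitted 1.49-fold difference with a 95% interval of 1.24 to 1.80. The soluble components, from C1ra and C4b to C3 and the inhibitor Serping1, differed by less than the test could separate from the spread between lungs. At an unadjusted p under 0.05, 2 of the 9 genes were higher, C5ar1 and C3ar1, and 0 were lower, and voom on the recovered reads called 1 higher and 0 lower. The share of all genes at an unadjusted p under 0.05 is not given, here or below. Such counts therefore have no background to be read against. With the added limit of an absolute log2 fold change above 1, which 1.14% of all genes passed, 0 of the 9 did (0 also by unadjusted p and by voom).

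Sequence around the start of transcription was taken for both receptors, the gene that passed the test and its partner, from 250 bases before to 50 bases after the RefSeq start on GRCm38.p6. The window of C5ar1 is chr7:16259289-16259588 and that of C3ar1 is chr6:122856108-122856407, both on the minus strand and written 5′ to 3′ along the gene. Capitals mark a match to a motif that was searched.
C5ar1: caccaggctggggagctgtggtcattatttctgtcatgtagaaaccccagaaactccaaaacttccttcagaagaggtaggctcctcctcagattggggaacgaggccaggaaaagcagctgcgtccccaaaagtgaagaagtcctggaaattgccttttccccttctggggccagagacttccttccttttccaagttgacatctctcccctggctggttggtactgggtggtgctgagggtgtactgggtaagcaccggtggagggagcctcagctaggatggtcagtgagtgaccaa
C3ar1: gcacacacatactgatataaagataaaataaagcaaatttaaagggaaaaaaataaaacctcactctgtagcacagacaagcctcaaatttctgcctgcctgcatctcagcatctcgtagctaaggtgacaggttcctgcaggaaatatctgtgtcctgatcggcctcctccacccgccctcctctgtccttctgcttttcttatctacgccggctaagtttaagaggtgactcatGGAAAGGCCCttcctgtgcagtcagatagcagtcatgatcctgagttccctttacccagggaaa
The motifs, chosen after the values were seen and searched on both strands, were the interferon-stimulated response element core (GAAA, 2 free bases, GAAA), the gamma-activated site TTCNNNGAA, the NF-kB site (GGG, 2 free bases, TTTCC), the PU.1 core GAGGAA, the C/EBP site TTGCNNAA, the E-box CACGTG and the glucocorticoid response motif AGAACA. The C5ar1 window held 0 matches, and the C3ar1 window held 1 match, to the NF-kB site on the opposite strand, 14 bases before the start. That site occurs in 1.63% of 32851 promoter windows of the same length, the interferon element core in 3.44%, the E-box in 7.15% and the glucocorticoid motif in 19.0%. The windows of C3, Cfp and C1ra held other matches: a C/EBP site in C3 (10.8% of windows), 2 PU.1 cores in Cfp (28.3% of windows), and a PU.1 core, a C/EBP site and a gamma-activated site (8.3% of windows) in C1ra. A match is a string of letters and was not tested for binding. The RefSeq table gave a window for 5 of the 9 genes. C2, C4b, Cfb and Serping1 are named without one.

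The recovered depth was 16250190 to 19026843 reads on genes in the IPF libraries and 15483046 to 17818542 in the sham libraries. The lungs were frozen whole, the methods do not say whether blood was flushed from them, and the summed level of red cell markers ran from 310 to 3266 FPKM. The labels number the samples without naming a mouse for each, so p-values measure the spread between these samples. Lung markers were present in every library, with Sftpc, the surfactant protein of alveolar type 2 cells, at 9437 to 16514 FPKM. One sham library stood apart: sham replicate 1 had a mean Spearman correlation with the other libraries, across genes, of 0.957, where the rest lay between 0.963 and 0.968. IPF replicate 3 had the largest sum of secretory airway markers, at 27464 FPKM against 3713 to 13253 FPKM in the other IPF lungs and 11530 to 22996 FPKM in the sham lungs, and 3 of 5 IPF lungs lay below all sham lungs. Reads of Xist, which female cells express, and of Y-linked genes divided the libraries exactly by operation: Ddx3y had 0 reads in each IPF library and 17.4 ± 3.07 FPKM (SD, n = 5) in the sham libraries, although the methods describe pups of both sexes. Sex and operation therefore cannot be told apart in any comparison here. Clock genes also moved with the groups, 3 of 15 higher and 11 lower, as did glucocorticoid-induced genes, 7 of 10 lower and 0 higher (0 higher by unadjusted p and by voom), and their part in the results was not tested.

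In both groups the 9 genes covered about the same order of levels per length. Serping1 was highest and stood at rank 154 of all genes by mean FPKM in IPF lungs, followed by C3 at rank 394. C4b and C1ra came next with ranges that overlapped in each group, then Cfp, C5ar1, C2, C3ar1 and Cfb at rank 16954. C5ar1 lay above C2 in every IPF lung, and in sham lungs the ranges of these 2 genes overlapped. All other neighbours in the order were separated in both groups.

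**Figure D1:**
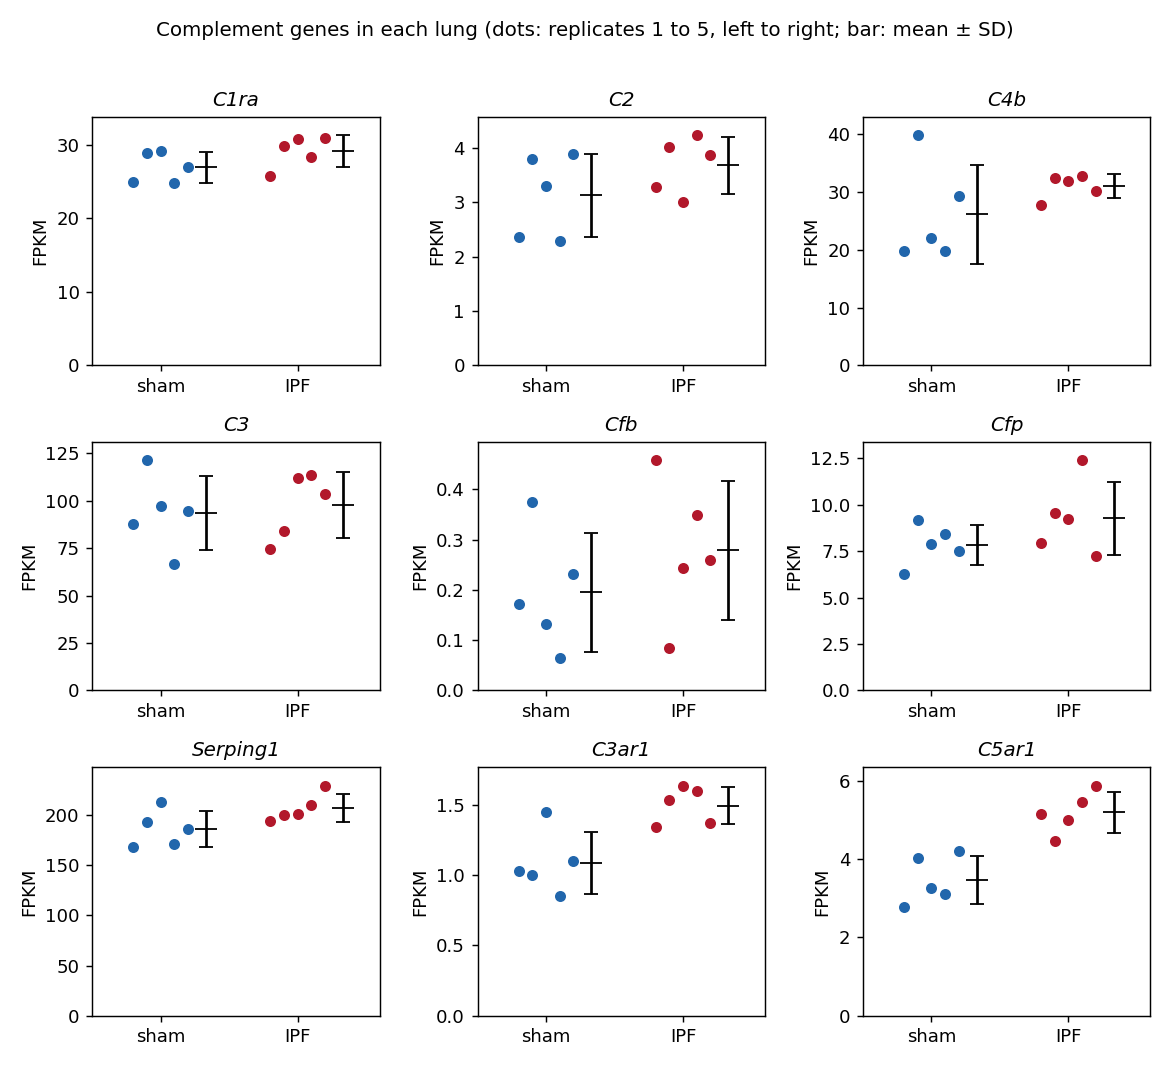
FPKM of each of the 9 complement genes in each lung, 1 panel per gene with its own vertical axis, points for the 5 IPF and 5 sham lungs and a bar for each group mean. The 5 IPF points of C5ar1, from 4.46 to 5.87 FPKM, lie above the 5 sham points, from 2.76 to 4.21 FPKM, and in the other 8 panels the groups overlap.

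The classical route begins with C1, in which C1q recognises antibody or other surfaces and the proteases C1r and C1s are activated. C1ra (ENSMUSG00000055172, GRCm38 chromosome 6, 124512405 to 124523443, plus strand) encodes C1r. Its level in IPF replicates 1 to 5 was 25.7, 29.8, 30.8, 28.3 and 30.9 FPKM, and in sham replicates 1 to 5 it was 24.9, 28.9, 29.2, 24.8 and 26.9 FPKM. The groups overlapped, with sham replicates 1 and 4 lowest of all lungs and IPF replicates 3 and 5 highest. The log2 fold change was 0.11 (standard error 0.07, 95% interval -0.04 to 0.27, limma adjusted p = 0.430). This was the narrowest interval among the 9 genes, and it rests on 1222 to 1735 reads per library. Its near copy C1rb, to which reads could be misassigned, had 1 to 6 reads per library.

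The other parts of C1 were examined from a list of 49 further complement genes, of which 35 were tested. C1s1, the second protease, stood at 49.2 ± 5.48 FPKM in IPF and 46.0 ± 2.97 FPKM in sham lungs (SD, n = 5 lungs per group). The groups differed by a log2 fold change of 0.09 at a limma adjusted p of 0.598. The ratio of C1ra to C1s1 had a median of 0.584 in IPF and 0.586 in sham lungs, so both proteases kept nearly the same proportion. The 3 chains of C1q, which are made mainly by macrophages, had log2 fold changes of 0.30 for C1qa, 0.40 for C1qb and 0.37 for C1qc, with limma adjusted p-values of 0.258, 0.107 and 0.103. C1qb ranged from 27.0 to 33.5 FPKM in the IPF lungs and from 15.0 to 25.7 FPKM in the sham lungs, without overlap, yet it missed the threshold. Every IPF lung was above every sham lung in 4.52% of all genes tested. Sham replicate 1 had the lowest value of each chain.

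Serping1 (ENSMUSG00000023224, chromosome 2, 84765387 to 84775444, minus strand) encodes the C1 inhibitor, which inactivates C1r and C1s. In IPF replicates 1 to 5 it read 194, 200.2, 202, 210.3 and 230 FPKM, and in sham replicates 1 to 5 it read 168, 193, 213, 172 and 187 FPKM. IPF replicate 5 was the highest lung and sham replicate 1 the lowest, but sham replicate 3 exceeded all IPF lungs except replicate 5. The group means were 207 ± 13.8 and 187 ± 18.1 FPKM (SD, n = 5 each). They differed by a log2 fold change of 0.15 (standard error 0.08, 95% interval -0.02 to 0.33, limma adjusted p = 0.330). Set against its target, the ratio of Serping1 to C1ra ran from 6.55 to 7.54 in IPF and from 6.68 to 7.30 in sham lungs.

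The substrates of C1 lie close together on chromosome 17, in the class III region of the major histocompatibility complex. C4b, Cfb and C2 occupy 169.9 kb of the minus strand, and 85 bases separate the annotated bounds of Cfb and C2. C4b (ENSMUSG00000073418, chromosome 17, 34728380 to 34743882) encodes C4, whose larger fragment attaches to surfaces. Its level was 27.7, 32.5, 32.0, 32.8 and 30.2 FPKM in IPF replicates 1 to 5 and 19.8, 39.8, 22.1, 19.9 and 29.3 FPKM in sham replicates 1 to 5. The IPF lungs were tightly grouped, while sham replicate 2 was the highest of all lungs and sham replicates 1, 3 and 4 the lowest. The SD was 2.10 FPKM around 31.0 in IPF and 8.57 FPKM around 26.2 in sham lungs (n = 5 each), and the log2 fold change of 0.30 (standard error 0.17, 95% interval -0.08 to 0.68) reached an adjusted p of 0.383 in limma. Without sham replicate 2 it was 0.46 (limma adjusted p = 0.0516, the lowest over 21 alternatives, which reached up to 0.648). Its paralog C4a had 4 to 10 reads per library, against 1859 to 4068 for C4b.

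C2 (ENSMUSG00000024371, chromosome 17, 34862604 to 34898265) supplies the protease of the classical C3 convertase. It was at 3.28, 4.03, 3.01, 4.24 and 3.88 FPKM in IPF replicates 1 to 5, and at 2.37, 3.80, 3.30, 2.30 and 3.89 FPKM in sham replicates 1 to 5. Sham replicates 1 and 4 were the lowest of all lungs, and the other 3 sham lungs lay within the IPF range. The log2 fold change was 0.25 (standard error 0.17, 95% interval -0.11 to 0.62, limma adjusted p = 0.449). C2 overlaps Zbtb12 on the opposite strand, a gene with 61 to 126 reads per library, and whether the counting used strand was not stated, so some of its 148 to 299 reads could belong to Zbtb12. C2 also overlaps Gm20547 on the same strand, which had 0 reads in every library. How reads shared by overlapping genes were counted was not stated.

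Cfb (ENSMUSG00000090231, chromosome 17, 34856374 to 34862518) encodes factor B, the counterpart of C2 in the alternative route. It was the lowest of the 9 genes, at 0.458, 0.0849, 0.243, 0.350 and 0.260 FPKM in IPF replicates 1 to 5 and at 0.172, 0.375, 0.132, 0.0638 and 0.232 FPKM in sham replicates 1 to 5. These values stand for 3 to 22 reads per library, for which counting error alone is 21.3% to 57.7% of the value. Gm20547 (34856412 to 34882042), with 0 reads in every library, also overlaps nearly all of Cfb on the same strand. A loss of Cfb reads to this overlap was not tested. The groups overlapped over nearly their whole ranges, and the log2 fold change of 0.36 had a 95% interval of -0.44 to 1.16 (standard error 0.36, limma adjusted p = 0.635). As a fold, that interval runs from 0.738 to 2.24.

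C3 (ENSMUSG00000024164, chromosome 17, 57203970 to 57228136, minus strand), the component on which the routes converge, was the second most abundant of the 9. IPF replicates 1 to 5 had 74.7, 84.1, 112, 114 and 103 FPKM, and sham replicates 1 to 5 had 88.0, 121, 97.1, 66.7 and 94.6 FPKM. Both the highest and the lowest lung were sham lungs, and the IPF values lay between them. The group means of 97.6 ± 17.4 and 93.5 ± 19.5 FPKM (SD, n = 5 each) gave a log2 fold change of 0.07 (standard error 0.16, 95% interval -0.29 to 0.42, limma adjusted p = 0.866). The sign of this difference turned on 1 lung, since without sham replicate 4 the log2 fold change was -0.047. C3 had 5717 to 11179 reads per library, with a counting error of 0.946% to 1.32% of the value, so the spread between lungs and not the depth set the width of its interval.

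Cfp (ENSMUSG00000001128, chromosome X, 20925454 to 20931555, minus strand) encodes properdin, which stabilises the alternative C3 convertase and is made by leukocytes. Its values were 7.92, 9.54, 9.23, 12.4 and 7.26 FPKM in IPF replicates 1 to 5 and 6.29, 9.19, 7.89, 8.40 and 7.52 FPKM in sham replicates 1 to 5. IPF replicate 4 was the highest lung, and IPF replicate 5 was below all sham lungs except replicate 1. The log2 fold change of 0.22 (standard error 0.14, 95% interval -0.09 to 0.53) had a limma adjusted p of 0.431. Because Cfp is X-linked and Xist was found in the IPF libraries alone, sex differs with the operation for this gene as for the others.

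C5ar1 (ENSMUSG00000049130, chromosome 7, 16246743 to 16259540, minus strand) encodes the main receptor of the C5a fragment and was the gene that passed the test. IPF replicates 1 to 5 read 5.14, 4.46, 5.00, 5.47 and 5.87 FPKM, and sham replicates 1 to 5 read 2.76, 4.01, 3.25, 3.11 and 4.21 FPKM. All 5 IPF lungs were above all 5 sham lungs, which was true of 1 of the 9 genes and of 4.52% of all genes tested. The groups differed by 0.58 on the log2 scale (standard error 0.12, 95% interval 0.31 to 0.85, limma adjusted p = 0.0180). The call was lost without IPF replicate 4 (limma adjusted p = 0.0508) and when both IPF replicate 3 and sham replicate 1 were left out (0.0508), where the log2 fold changes were 0.56 and 0.52, and over all 21 alternatives the adjusted p ran from 0.00932 to 0.0508. The RefSeq start used for the promoter window shown above lies inside the gene as the authors' table bounds it.

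C3ar1 (ENSMUSG00000040552, chromosome 6, 122847138 to 122856161, minus strand) encodes the receptor of C3a. Its level was 1.34, 1.53, 1.63, 1.59 and 1.37 FPKM in IPF replicates 1 to 5 and 1.03, 0.997, 1.45, 0.851 and 1.10 FPKM in sham replicates 1 to 5. Sham replicate 3 reached into the IPF range, and 3 of 5 IPF lungs were above all sham lungs. For C3ar1 the log2 fold change was 0.44 (standard error 0.14, 95% interval 0.13 to 0.75), and the limma adjusted p of 0.0979 missed the threshold. Without sham replicate 3 the adjusted p was 0.0412 and the log2 fold change 0.54, and over all 21 alternatives the adjusted p ran from 0.0412 to 0.229. C3ar1 had 61 to 133 reads per library, for which the counting error was 8.67% to 12.8% of the value.

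Both anaphylatoxin receptors are genes of myeloid cells, and in whole lung more cells of a type and more RNA per cell cannot be told apart. C5ar2, the second C5a receptor, which signals without G proteins, ranged from 0.873 to 1.06 FPKM in IPF and from 0.573 to 0.865 FPKM in sham lungs, without overlap (log2 fold change 0.48, limma adjusted p = 0.0787). The ratio of C5ar1 to C5ar2 lay between 4.74 and 6.73 in IPF and between 4.05 and 6.57 in sham lungs, which overlapped. Itgb2 and Itgam, the chains of complement receptor 3, had log2 fold changes of 0.45 and 0.49 with limma adjusted p-values of 0.0649 and 0.157. Itgb2 was called in 4 of the 21 alternatives and C5ar2 in 3, both of them with array weights and without sham replicate 5. Itgax, the chain that replaces Itgam in complement receptor 4, had -0.08 (limma adjusted p = 0.743).

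**Figure D2:**
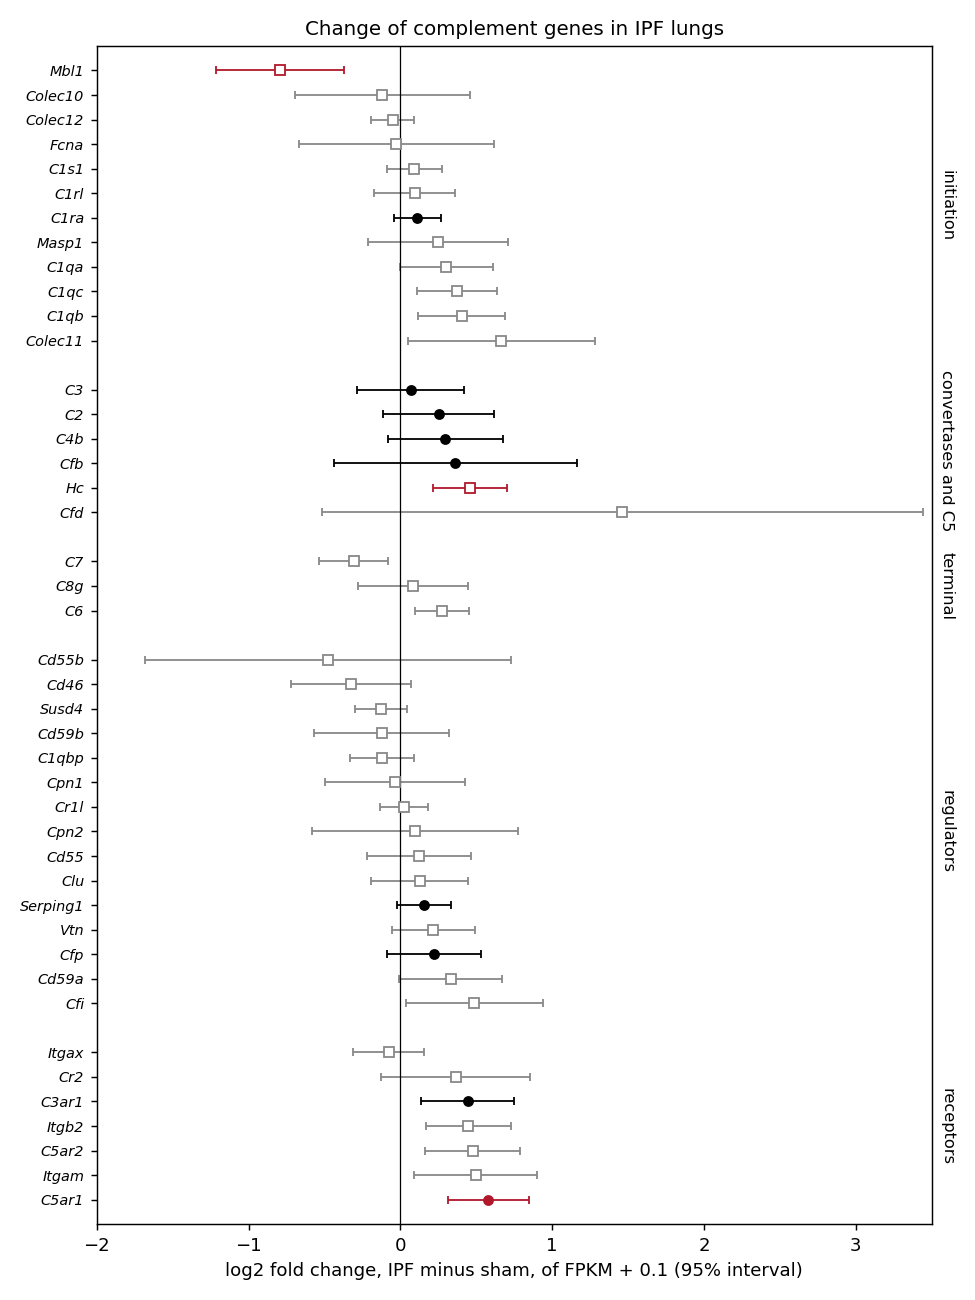
log2 fold change, IPF minus sham on log2(FPKM + 0.1), with the 95% limma interval, for the 9 complement genes (filled circles) and other complement genes (open squares), grouped by role and coloured red at an adjusted p under 0.05. C5ar1 at 0.58 and Hc at 0.46 are red to the right of 0 and Mbl1 at -0.79 is red to the left, while the intervals of the other genes named here are not red.

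Of the 35 other complement genes tested, 1 was called higher, 1 lower and 33 were not called, where voom on the recovered reads called 2 higher and 1 lower and an unadjusted p under 0.05 was reached by 10 higher and 2 lower. The unadjusted counts have no share of all genes beside them. The 2 calls of 35 by adjusted p are close to the 5.85% of all genes called in either direction. Every IPF lung was above every sham lung for 4 of the 35, C1qb, C5ar2, Hc and Cfi, beside 4.52% of all genes tested. The median log2 fold change was 0.25 over the 9 genes, 0.12 over these 35 and 0.0016 over all genes tested. All 9 had a positive log2 fold change, as did 23 of the 35 and 50.4% of all genes. The 9 genes share lungs and libraries and are not independent, so the shared sign is a description.

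The called pair were Hc and Mbl1. Hc (chromosome 2, 34983331 to 35061438) encodes C5, the precursor of the ligand of C5ar1, and read 102, 109.5, 110.0, 155 and 96.6 FPKM in IPF replicates 1 to 5 and 85.8, 83.8, 77.3, 82.5 and 81.6 FPKM in sham replicates 1 to 5. Every IPF lung was above every sham lung, and IPF replicate 4 was far above the rest. Its log2 fold change was 0.46 (standard error 0.11, limma adjusted p = 0.0352), but the call held in 9 of 21 alternatives, with adjusted p-values from 0.0170 to 0.0972. It was lost when IPF replicate 2 or 3 or any 1 of the 5 sham replicates was left out, with an adjusted p of up to 0.0859. The antisense gene Gm13449 within Hc had 4 to 38 reads per library. C3 and Hc, which are homologous, stood in a ratio of 0.735 to 1.07 in IPF (median 0.768) and of 0.809 to 1.45 in sham lungs (median 1.16), which overlapped.

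Mbl1 (chromosome 14, 41151458 to 41159601) encodes a mannose-binding lectin that starts the lectin route. It was at 1.31, 0.764, 1.75, 1.05 and 0.936 FPKM in IPF replicates 1 to 5 and at 2.24, 2.20, 1.86, 1.64 and 2.17 FPKM in sham replicates 1 to 5. IPF replicate 3 reached into the sham range, and the other 4 IPF lungs were below all sham lungs. On the log2 scale it fell by 0.79 (standard error 0.19, limma adjusted p = 0.0349), and the call held in 10 of 21 alternatives, with adjusted p-values from 0.00975 to 0.0832. It was lost when any lung other than IPF replicate 3 or sham replicate 4 was left out. Colec12, a membrane collectin and the most abundant lectin of the list, had 76.4 ± 4.41 FPKM in IPF and 79.2 ± 5.38 FPKM in sham lungs (SD, n = 5 lungs per group). The log2 fold change was -0.05 at a limma adjusted p of 0.714.

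Of the late components, which form the membrane pore, C6 had log2 fold change 0.27 (limma adjusted p = 0.0792, and 0.0233 without sham replicate 2, the 1 of 21 alternatives that called it) and C7 had -0.31 (limma adjusted p = 0.119). C7 was abundant, at 155.8 ± 16.0 FPKM in IPF and 193 ± 24.9 FPKM in sham lungs (SD, n = 5 each). The ratio of C7 to C6 ran from 9.44 to 12.1 in IPF and from 11.1 to 21.0 in sham lungs. C8a and C8b had 0 reads in every library and C9 had 0 to 2, so no complete set of pore genes was read in these lungs. A count of 0 allows up to 3 reads per library.

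The regulators of the cascade gave 0 calls among 14 genes tested, with 2 higher and 0 lower at an unadjusted p under 0.05 and 0 by voom. Cfi, a protease that inactivates C3b and C4b fragments, was at 0.482 and 0.316 FPKM (log2 fold change 0.49, limma adjusted p = 0.215) on 7 to 25 reads. The membrane regulators Cd55, Cr1l and Cd59a, which guard host cells, had log2 fold changes of 0.12, 0.02 and 0.33 with limma adjusted p-values of 0.730, 0.903 and 0.265. Susd4, another membrane regulator, had -0.13 (limma adjusted p = 0.412), with 3 of 5 IPF lungs below all sham lungs, and 6 of the 14 regulators had a negative log2 fold change. Cfd, the factor D that activates factor B and a known product of fat, was at 7.29 FPKM in IPF replicate 3 and at most 0.536 FPKM in any other lung. In that library Adipoq, a marker of fat cells, read 0.881 FPKM and at most 0.159 FPKM elsewhere. The sum of the whole fat list was 4.06 FPKM there and higher, at 5.31 FPKM, in IPF replicate 4, where Cfd read 0.536 FPKM, and it was 1.10 to 1.78 FPKM in the other lungs, and the part of fat in the Cfd value was not tested.

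**Figure D3:**
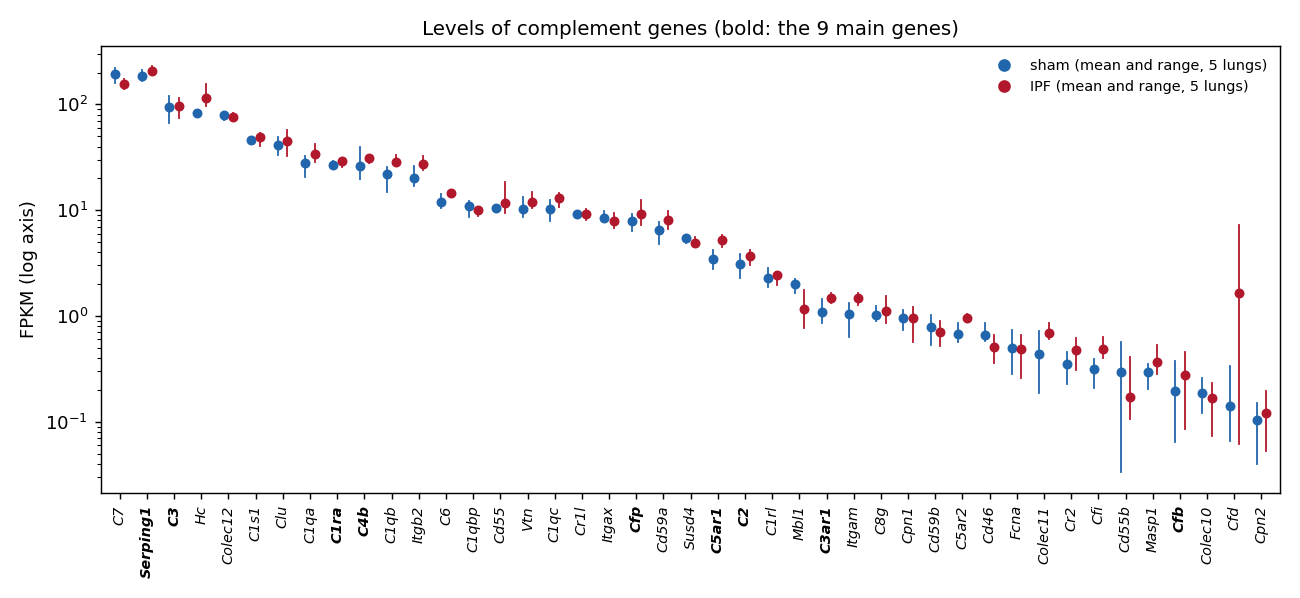
Mean FPKM on a log axis, with the range over the 5 lungs of each group, of the 9 complement genes and other complement genes, and 0 values of Cfd and Cd55b are not drawn in the range. Serping1 leads the 9 at 207 FPKM in IPF and 187 FPKM in sham lungs, and Cfb lies lowest of the 9 at 0.279 and 0.195 FPKM.

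The lungs that were high or low tended to be so for several genes. Sham replicate 2 was the highest sham lung for C3, C4b, Cfb and Cfp, sham replicate 4 the lowest for C2, C3, Cfb, C1ra and C3ar1, and sham replicate 1 the lowest for C4b, Cfp, Serping1 and C5ar1. IPF replicate 4 led its group for C2, C3, C4b and Cfp, IPF replicate 5 for C1ra, Serping1 and C5ar1, and IPF replicate 1 was lowest of its group for C3, C4b, C1ra, Serping1 and C3ar1. As deviations from the group means over the 10 lungs, 33 of 36 pairs of the 9 genes had a positive Pearson correlation, with a median of 0.48 and a range of -0.05 to 0.79. The highest were C1ra with Serping1 at 0.79, C2 with C4b at 0.75 and C3 with C1ra at 0.72. The pair of receptors, C3ar1 and C5ar1, was at -0.04. All these values share 10 libraries and their scaling.

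Among 13445 genes with a mean of at least 1 FPKM, those whose deviations were most like C5ar1 were Spi1 (0.945), Vps36 (0.926) and Clec4a3 (0.913). Spi1 encodes PU.1, a transcription factor of myeloid cells, and Clec4a3 a lectin receptor of myeloid cells. Most like C3ar1 were Tmem209 (0.950), the T cell chemokine Ccl5 (0.944) and Gm4482 (0.939), and most like Serping1 were Chmp3 (0.955), Snx8 (0.949) and Ric8a (0.931). None of these genes passed the test between the groups, with Spi1 nearest at 0.46 on the log2 scale (limma adjusted p = 0.0649).

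**Figure D4:**
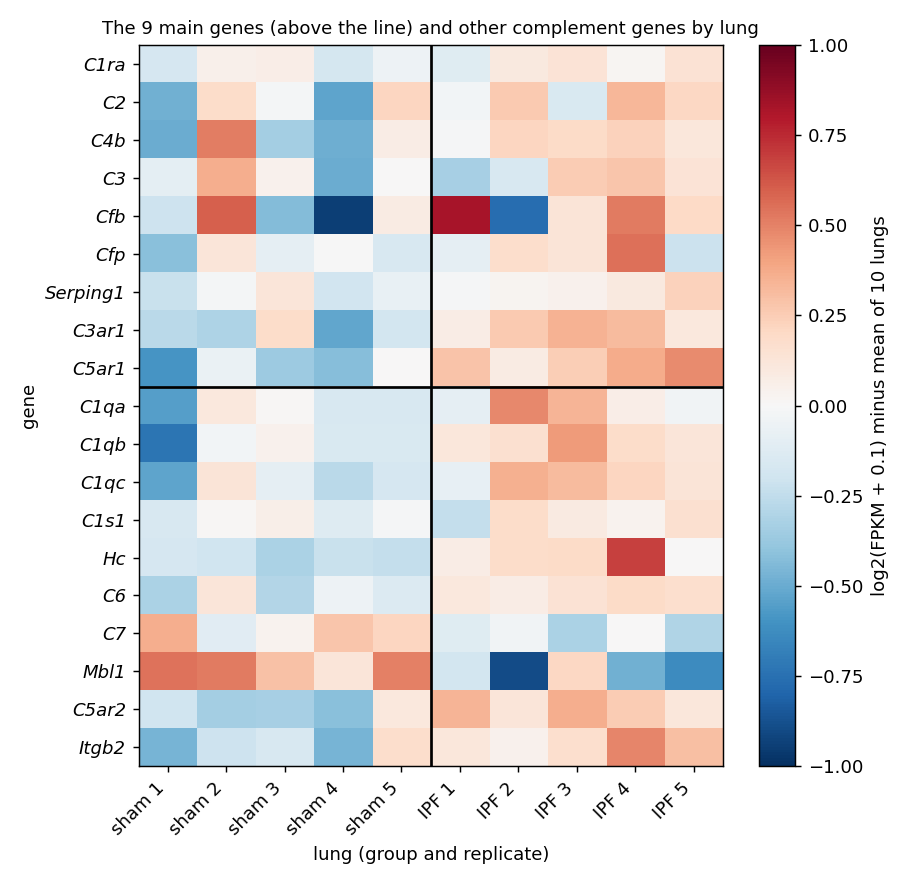
log2(FPKM + 0.1) of each of the 9 genes (above the line) and of other complement genes chosen after their values were seen (below it) in each lung, minus the mean of that gene over the 10 lungs, with the colour scale ending at -1 and 1. The rows of C5ar1 and C3ar1 have the IPF lungs mostly above and the sham lungs mostly below the mean, and sham replicate 4 is low in several rows.

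Several of the 9 genes, C2, C4b, C1ra and Serping1 among them, are known to respond to interferon. The genes just named were not called (limma adjusted p from 0.330 to 0.449), while interferon-induced genes were called in the same comparison. Of 26 type I interferon genes, 18 were higher and 0 lower (0 lower by unadjusted p and by voom), with a median log2 fold change of 0.72, against the 3.71% of all genes called higher. Rtp4 was at 23.6 ± 5.86 FPKM in IPF and 11.0 ± 1.13 FPKM in sham lungs (SD, n = 5 lungs per group). Rtp4 thus had a log2 fold change of 1.06 at a limma adjusted p of 0.00179, and Isg15, a ubiquitin-like antiviral protein, rose with a log2 fold change of 1.26 and a limma adjusted p of 0.00373. Of 22 interferon-gamma genes, 18 were higher and 0 lower (0 lower by unadjusted p and by voom), among them Gbp6 and Ifi47, GTPases of cell-autonomous defence, at 1.64 and 1.07. The summed level of the latter list was 252 to 301 FPKM in IPF and 141 to 190 FPKM in sham lungs. The list of acute phase and NF-kB genes had 1 of 15 higher, Ccl2, and 1 lower, Lcn2, with a median of -0.0026. At an unadjusted p under 0.05 this list had 5 higher and 3 lower, and voom called 1 higher and 2 lower. These lists were not chosen independently of earlier results, and their part in the complement values was not tested.

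Marker lists of the leukocytes that express C5ar1 and C3ar1 were read beside them. Of 12 monocyte markers 5 were higher and 1 lower, and their summed level was 67.2 to 84.7 FPKM in IPF and 34.9 to 50.6 FPKM in sham lungs, without overlap. Ly6c2 and Ccr2, markers of classical monocytes, rose by log2 fold changes of 1.01 and 0.66, Plac8 by 1.55 and Treml4 by 1.16 (limma adjusted p = 0.00143, 0.0244, 0.00146 and 0.0180), and Vcan was lower by a log2 fold change of -0.86. Of 12 neutrophil markers 0 were called (7 higher and 0 lower at an unadjusted p under 0.05, 0 by voom), with a median log2 fold change of 0.93 and sums of 127 to 366 FPKM in IPF and 60.0 to 139 FPKM in sham lungs. These sums overlapped, and the 366 FPKM was IPF replicate 5, where the other 4 IPF lungs reached at most 162 FPKM. Their part in the C5ar1 difference was not tested.

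Macrophages, which also express both receptors, were read from 2 lists. Of 11 alveolar macrophage markers 0 were called (1 higher and 0 lower at an unadjusted p under 0.05, 0 by voom), and the sums of 397 to 616 FPKM in IPF and 370 to 566 FPKM in sham lungs overlapped. Of 10 interstitial macrophage markers, Cx3cr1, which non-classical monocytes also carry, was higher (log2 fold change 0.97, limma adjusted p = 0.00118) and Cd163 lower (-0.72, limma adjusted p = 0.0201), with 6 higher and 2 lower at an unadjusted p under 0.05 and 2 higher and 2 lower by voom. The sums of this list, 413 to 571 FPKM in IPF and 447 to 532 FPKM in sham lungs, overlapped. Among lymphocytes, 7 of 8 B cell markers were higher and 0 lower (0 lower by unadjusted p and by voom). Of 8 T cell markers Cd4 was higher (5 higher and 0 lower at an unadjusted p under 0.05, 0 of 8 by voom). Of 5 mast cell markers tested, Cpa3 and Cma1 were higher, at log2 fold changes of 2.20 and 1.21. In none of these leukocyte lists was a defining marker at or under 3 reads in every library.

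Fibroblasts, endothelium and epithelium of the lung also express complement components. Of 12 fibroblast markers Pdgfra and Lum were higher (3 higher and 0 lower at an unadjusted p under 0.05, 2 higher by voom), and the sums overlapped. Of these 12 markers, 5 had a positive and 7 a negative log2 fold change. Of 8 endothelial markers Cldn5 was higher, at a log2 fold change of 0.56 (3 higher and 0 lower at an unadjusted p under 0.05, 1 higher by voom). The endothelial sums, 1520 to 1690 FPKM in IPF and 1350 to 1458 FPKM in sham lungs, did not overlap, and their part in the complement values was not tested. The lists of alveolar type 2 and type 1, secretory, ciliated, mesothelial, smooth muscle, fat and red cells gave 0 calls by limma, with at most 1 gene higher and 2 lower per list at an unadjusted p under 0.05. Voom called 1 gene lower in each of the type 1 and type 2 lists. Of 8 hepatocyte markers, Apoa1, Ttr, Fgb, Serpina1a and Apoc3 had at most 3 reads in every library, 3 were tested and 0 were called (0 higher and 1 lower by unadjusted p, 0 by voom), with sums of 7.15 to 11.2 FPKM in IPF and 7.60 to 10.9 FPKM in sham lungs. Of the 3 tested, Trf, which other cells also express, made most of these sums, at a mean of 8.50 FPKM in IPF and 8.42 FPKM in sham lungs, and Alb stood at 0.505 and 0.454 FPKM and Ahsg at 0.115 and 0.298 FPKM. The part of liver RNA in the complement values was not tested.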

How the data were processed

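Total RNA of 10 lungs was sequenced, 5 per group. The authors trimmed reads with Fastp, aligned them with HISAT2 and quantified genes with StringTie according to the methods, and what they deposited is 1 FPKM value for each gene in each sample. The submitters' processing notes also name Bowtie 0.12.2 and several genome builds, human among them, and the methods and the labels name different library kits. The methods give GRCm39, while the last gene of chromosome 1 ends at 195323493, which places the table on GRCm38. The table held 0 sample columns of other series.

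Multiplied by gene length, every deposited FPKM value came out as a whole number of equal steps within its sample (tolerance 0.02 of a read), and these steps were taken as reads. The authors' scaling total was 0.959 to 1.03 times the recovered reads. Floors (3 reads) and counting errors cover counting error only.

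The 20448 genes averaging 0.1 FPKM or more were tested with limma 3.58.1 (R 4.3.3, variance trend, two-sided) on log2(FPKM + 0.1), which understates changes of low genes, with no covariate and Benjamini-Hochberg adjustment over all of them. The 95% intervals are limma's and rest on the spread between lungs. DESeq2, named in the methods, needs counts and was not used on FPKM. A test on simulated data preceded the fit. Tables and figures were made in Python 3.11.15.

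The 9 genes and all lists were chosen with earlier results of these data known. Genes named besides the 9 were other complement genes with an adjusted p under 0.05, those of the C1 complex, the lectin route, factors D and I, C5 and membrane regulators with a mean of at least 1 FPKM, the 3 genes most like each of the 3 members with the smallest adjusted p, and up to 4 called genes or defining markers per list. Named outside that rule, after their values were seen, were C5ar2, Itgb2, Itgam, Itgax, C6, C7, Cfi, C8a, C8b, C9, the paralogs C1rb and C4a, genes that overlap a described gene, and the genes singled out for 1 library. One gene of the lists is counted but not reported here.

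The alternatives changed the pseudocount to 1 or 0.01, dropped the filter or raised it to 1 FPKM, rescaled the samples by quantiles or by median ratios, weighted arrays, left out the variance trend, took replicate number as a block, ran voom on recovered reads, or left out each sample. Leaving out IPF replicate 3 and sham replicate 1 together was chosen after seeing the data.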

Additional observations from a re-analysis of the deposited data

Results flagged for a closer look

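Dixon's test for 1 lung far from the other 4 of its group was applied to 88 groups of 5, and 6 passed, where chance gives about 1 in 20. None of the 6 belonged to the 9 genes. In the IPF group, IPF replicate 3 stood apart for Cfd at 7.29 FPKM, where the other 4 lungs held 0.0613 to 0.536 FPKM, for Cd55 at 18.5 FPKM against 9.38 to 10.9 FPKM, and for C1qb at 33.5 FPKM against 27.0 to 28.3 FPKM. Hc read 154.8 FPKM in IPF replicate 4 and 96.6 to 110.0 FPKM in the others, and C1rl read 1.97 FPKM in IPF replicate 5 and 2.46 to 2.63 FPKM in the others. In the sham group, Cd46 read 0.862 FPKM in sham replicate 1 and 0.577 to 0.655 FPKM in the others.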

How the results depend on the processing

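Over 21 alternatives, the log2 fold changes of C2, C4b, Cfb, Cfp, C1ra, Serping1, C3ar1 and C5ar1 were positive in each fit that gave a value. Cfb gave none under a mean FPKM of at least 1, and read 0.097 with a pseudocount of 1. Over the leave-one-out fits C2 ran from 0.15 to 0.34, Cfb from 0.17 to 0.60 and Cfp from 0.11 to 0.30. The lowest came without sham replicate 4 for C2 and Cfb and without IPF replicate 4 for Cfp. C3 ran from -0.047 to 0.17 over the leave-one-out fits, reversing to -0.047 without sham replicate 4, and reversed to -0.0021 with IPF replicate 3 and sham replicate 1 left out together. C5ar1 ran from 0.48 to 0.65 and kept its call in 19 of 21. The number of the 9 genes called higher was 0 to 2 over the leave-one-out fits, 0 without IPF replicate 4 and 2 without sham replicate 3, and 0 with the pair of libraries left out. For the other complement genes called higher (1 in the report) it was 0 with no filter, with quantile normalization and with that pair left out, 2 with a mean FPKM of at least 1 and with voom (Itgb2 added in both), 3 with array weights (C5ar2 and Itgb2 added), 3 with the replicate block, and 0 to 2 over the leave-one-out fits. For those called lower (1 in the report) it was 0 with no filter, with the replicate block and with no variance trend, and 0 to 1 over the leave-one-out fits. Over all genes, 494 to 950 were higher and 274 to 670 lower over the leave-one-out fits, with 494 higher without IPF replicate 4, and 1086 were higher and 663 lower with array weights. The causes were not tested. The median log2 fold change of all genes stayed between -0.015 and 0.012.

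Samples of the 2 groups that share a replicate number correlated by -0.02 to 0.10 in their deviations from the group means, so the numbers were not taken to pair them, although 6 of 10 samples correlated best with their own number, a hint from the data and not from the design. With the replicate block, C5ar1 kept its call (limma adjusted p = 0.0368), Hc and Mbl1 did not, and C1qa, C1qc and Cd59a were called (limma adjusted p = 0.0368, 0.0204 and 0.0302). Cfb, Cfi and Mbl1 had at most 62 reads per library.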
